A study of Mus musculus with 5 samples.

Results

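The mouse genes named Zfp, Zkscan or Zscan with a number form a large group of zinc finger genes, and 245 of the 7319 genes listed with a peak in these data carry such a name. The members were chosen by symbol alone, from any of 3 annotated peak lists, and every peak listed under such a symbol was kept. RefSeq holds 448 genes of the same pattern, of which 424 are protein coding, 13 are pseudogenes, 5 are transcribed pseudogenes and 6 are long noncoding RNAs. The study crosslinked proteins to RNA in GC-2spd(ts) cells, an immortalized mouse line labelled as spermatocytes, and recovered the bound fragments by eCLIP (enhanced crosslinking and immunoprecipitation) with an antibody to PABPC1 or to CCT3. PABPC1 is the cytoplasmic protein that binds poly(A) tails, and CCT3 is a subunit of the TRiC chaperonin, which folds newly made proteins. The 5 samples were 1 PABPC1 library, 1 PABPC1 input, 2 entries for CCT3 (titled CCT3 and CCT3-2) and 1 CCT3 input. No genotype, treatment or time is given in the labels, so as far as the labels say the groups share the line and differ in the antibody or, for the inputs, in its absence.

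The entries CCT3 and CCT3-2 carry the same library name, and nothing in the labels shows that they are separate cultures. They are given side by side below and are not counted as replicates. With 1 list per protein there was no test across samples. The 95% intervals are Wilson intervals for a share and Newcombe intervals for a difference; they cover counting error only, and they treat the peaks as independent although peaks of 1 gene are not. The lists give no read counts, so the depth behind a peak is unknown. A peak's log2 fold over input and its −log10 p are the authors' values and are used here only to describe and rank peaks within a list. Over 17 marker genes of spermatocytes, spermatids, Sertoli cells, Leydig cells and fibroblasts, the PABPC1 list held a peak in 15, including 4 of 6 spermatocyte markers, all 3 spermatid markers (Prm1, Tnp2 and Acrv1) and both Leydig markers (Insl3 and Cyp11a1). The CCT3 and CCT3-2 lists each held a peak in 1 of the 17, Sox9, and in 0 of the 6 spermatocyte markers. Over all coding genes, 22.6% were listed with a PABPC1 peak, 9.34% with a CCT3 peak and 12% with a CCT3-2 peak. The PABPC1 count was thus far above its background, while so few markers give CCT3 counts near theirs. What the marker counts have to do with the results on zinc finger genes was not tested.

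Most of these genes encode proteins with a run of C2H2 zinc fingers, small folds in which 2 cysteines and 2 histidines hold a zinc ion and a helix of the fold reads DNA. Neighbouring fingers follow each other with a short linker, so that the unit usually repeats every 28 residues, or 84 coding bases. Many also carry a KRAB domain, which recruits the corepressor TRIM28 and heterochromatin factors to silence transposable elements, or, in the Zkscan and Zscan genes, a SCAN domain, through which the proteins pair. In a typical gene of the family the whole finger array lies in a single last coding exon, and the genes sit in clusters of near copies along the chromosomes. Because near copies share sequence, reads can map to more than 1 of them; the authors' treatment of such reads is not given in the labels or the file headers, and values of close pairs such as Zfp955a and Zfp955b, Zfp874b and its neighbours, or Zfp729a and Zfp729b are uncertain for that reason.

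No sequence of the last exons or the 3′ UTRs was used here. The bases that could be read lie in the windows around RefSeq transcription starts (GRCm38.p6, the assembly of mm10), where 201 members have an entry. Peaks of members reached these windows in 1 case in the PABPC1 list, 2 in the CCT3 list and 3 in the CCT3-2 list. The windows run only from 250 bases before a start to 50 after it. These counts therefore do not show how rare peaks near the start are. The 3 sequences below show 1 such place for PABPC1 in Zfp523 and 2 for CCT3, in Zfp458 and Zfp697, each read 5′ to 3′ on the strand of the gene; the capitals mark the bases under the peak and the lower-case letters those just before it.
Zfp523, PABPC1, plus strand, chr17:28177217-28177246: ctccgaggctCGCCTGAGGAGACTCGGCGG
Zfp458, CCT3, minus strand, chr13:67268981-67269010: cgtcctgcagATCCAGAGGGACTGTGCAGG
Zfp697, CCT3, plus strand, chr3:98382476-98382505: gaggtagtggGCAGCCAGCCCGAGTGCCAG
The log2 fold was 3.36 at the peak in Zfp523, 3.80 at that in Zfp458 and 3.02 at that in Zfp697. All 3 stood below the median fold of the member peaks in their list, given further on.

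The members made up a far larger part of the CCT3 lists than of the PABPC1 list. In the PABPC1 list, 61 members had 122 peaks of 14092, or 0.866% of all peaks. In the CCT3 list, 175 members had 1024 peaks of 10916 (9.38%), and in the CCT3-2 list 210 members had 1666 peaks of 18650 (8.93%). Of the 424 protein-coding genes of the pattern, 61 (14.4%, interval 11.4 to 18.0%) were listed with a PABPC1 peak, against 22.6% of all 21900 coding genes. A CCT3 peak was listed for 172 of the 424 (40.6%, interval 36.0 to 45.3%), against 9.34% of all coding genes, and a CCT3-2 peak for 209 (49.3%, interval 44.6 to 54.0%), against 12% of all. The share of members was thus below the background for PABPC1 and above it in both CCT3 lists.

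The peaks lay in different parts of the transcripts for the 2 proteins. Of the PABPC1 peaks of members, 110 of 122 (90.2%) were annotated to the 3′ UTR, against 79.8% of the other PABPC1 peaks, a difference of 10.3 percentage points (interval 3.72 to 14.5). In the CCT3 list, 652 of 1024 member peaks (63.7%) were in exons outside the UTR, 302 (29.5%) in the 3′ UTR and 52 (5.08%) in introns. Among the other CCT3 peaks these shares were 46.3%, 16.9% and 32.2%, so the difference, members minus others, was −27.1 percentage points for introns (interval −28.6 to −25.3) and 12.6 for 3′ UTRs (interval 9.83 to 15.6). The CCT3-2 list gave 58.5% in exons, 29.2% in 3′ UTRs and 5.58% in introns for members, and 5.82% of member peaks against 17.2% of the other peaks were in promoters. The CCT3 list held only 0.391% of its member peaks in promoters, but the 2 CCT3 lists label some of the same sites differently. A Zfp638 peak that starts at chr6:83929310 in the CCT3 list is labelled exon 2 of 27. The CCT3-2 peak that starts at chr6:83929311 is labelled promoter. Overlapping peaks of Zfp513 are labelled exon 4 of 4 in the CCT3 list and promoter in the CCT3-2 list. How much of the promoter difference comes from the labels was not tested.

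**Figure D1:**
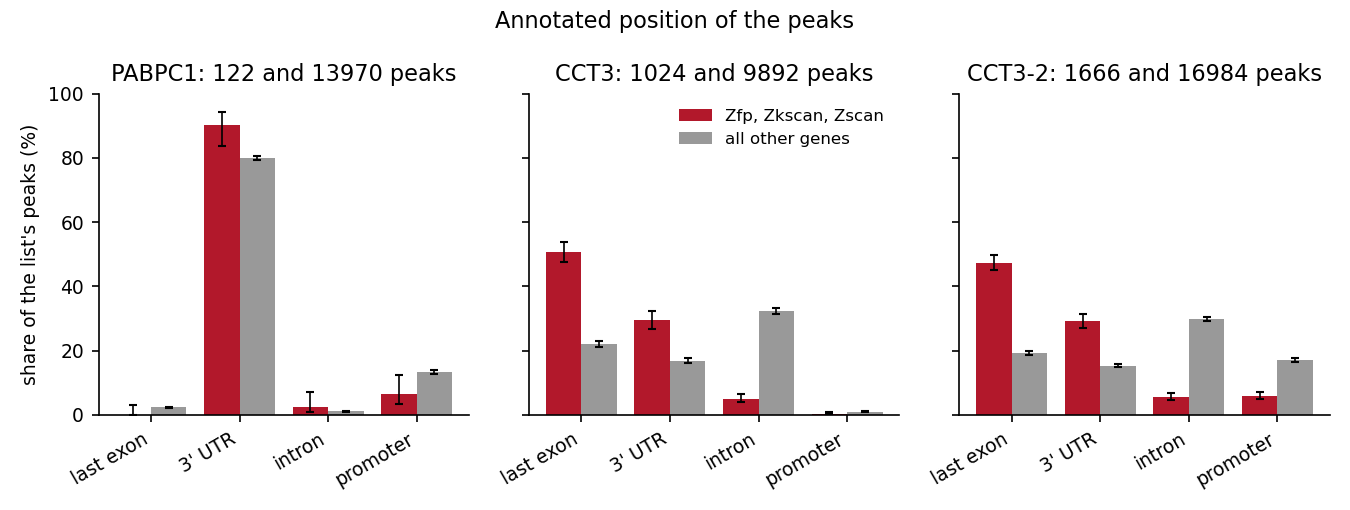
Share of peaks (%, vertical axis from 0) in last exons, 3′ UTRs, introns and promoters for Zfp, Zkscan and Zscan genes (red) and all other genes (grey), in each list. Bars are shares of all peaks of the set and lines are 95% Wilson intervals; in the CCT3 list the last-exon bar stands at 50.6% for members and 22.1% for other genes.

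The last exon held about as many CCT3 peaks of members as all other places together. In the CCT3 list, 518 of 1024 member peaks (50.6%, interval 47.5 to 53.6%) were annotated to the last exon of a transcript, against 22.1% of other peaks, a difference of 28.5 percentage points (interval 25.3 to 31.7). In the CCT3-2 list the shares were 47.4% (789 of 1666) and 19.2%, a difference of 28.1 (interval 25.7 to 30.6). Counted over exon peaks alone, 518 of 652 (79.4%) CCT3 peaks of members were in the last exon, against 47.7% for other genes. The CCT3-2 list gave 789 of 974 (81.0%) against 52.5%. Where the annotated transcript belonged to the listed gene itself, the CCT3 shares were 79.7% and 39.4%. The PABPC1 list held no member peak in a last exon (0 of 122, against 2.31% of other peaks, a difference whose interval, −2.57 to 0.750 percentage points, includes 0); the annotation gives a 3′ UTR peak no exon number, although most 3′ UTRs lie in the last exon. With last-exon and 3′ UTR peaks in 1 class, the share was 90.2% in the PABPC1 list, 80.1% in the CCT3 list and 76.5% in the CCT3-2 list for members, and 82.1%, 38.9% and 34.5% for other genes.

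By exon rank, the most frequent place was the fourth exon of a transcript with 4 exons. It held 198 of the 652 CCT3 exon peaks of members (30.4%) and 3.32% of those of other genes. Exon 5 of 5 and exon 6 of 6 followed with 76 peaks each, then exon 2 of 2 with 55, exon 3 of 3 with 44 and exon 7 of 7 with 24. Only 6 member peaks (0.920%) were in the first of several exons, against 10.5% for other genes. The annotated transcripts had a median of 4 exons for members and 5 for other genes. The CCT3-2 list gave the same leading ranks, with 304 peaks (31.2%) in exon 4 of 4, 127 in exon 5 of 5 and 114 in exon 6 of 6. The single PABPC1 exon peak of a member, under Zfp597, was in exon 1 of 2 of a transcript that the annotation assigns to no gene.

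Counted by gene, 144 of the 175 CCT3 members had an exon peak, and in 106 of these every exon peak was in the last exon; 21 had none there. Of the 175, 123 had a last-exon peak, 86 a 3′ UTR peak, 55 both, 25 only 3′ UTR peaks and 15 an intron peak. Among the 61 PABPC1 members, 54 had a 3′ UTR peak and 50 had nothing else. A CCT3 member had a median of 3 peaks, a CCT3-2 member 5 and a PABPC1 member 2, and other genes 2.5, 3 and 2. At least 10 peaks were listed for 36 members in the CCT3 list and 58 in the CCT3-2 list, and for 0 in the PABPC1 list. The share of other genes with as many peaks was not counted, so these counts do not set the members apart. Peak height differed little between members and other genes. The median log2 fold was 4.13 for members and 4.05 for other genes in the CCT3 list. It was 3.95 and 3.82 in the CCT3-2 list, and 4.34 and 4.19 in the PABPC1 list. Within the CCT3 members it was 4.13 in last exons, 4.21 in 3′ UTRs, 3.87 in other exons and 4.41 in introns.

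The last exon is that of the annotated transcript, which need not be the full gene. Of the 472 CCT3 last-exon peaks of members inside the RefSeq span of their gene, 64 (13.6%), in 17 genes, lay more than 10 kb from the gene's 3′ end. Zfp451, a SUMO ligase, is the clearest case among the genes with most peaks: its 13 last-exon peaks were in exon 4 of 4 of a short transcript, and its 22 CCT3 peaks lay a median of 40736 bases from the 3′ end of the gene. The listed gene is that of the nearest transcription start, so a peak can be listed under a neighbour. Of 704 CCT3 member peaks in exons or introns, the annotated transcript belonged to the listed gene for 607 (86.2%), to another member for 51 (7.24%), to a gene of the pattern that is in no list for 16 (2.27%) and to no gene for 30 (4.26%). In the other direction, some peaks in an exon or intron of a gene of the pattern were listed under a symbol outside it. They numbered 93 in the CCT3 list and 139 in the CCT3-2 list. Of these, 41 and 69 lay in Zfp292, a large zinc finger transcription factor gene, which puts that gene above every listed member by number of peaks in both lists.

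Among the 8 CCT3 members with most peaks, several patterns were seen. Zfp62 (chr11:49203261-49218816, plus strand) had 20 peaks, of which 19 were in the last exon, with a highest log2 fold of 5.71; the CCT3-2 list gave 31 peaks, 24 of them there, and 6.08. Zkscan1 (chr5:138085050-138107822, plus strand), a SCAN and KRAB gene, had 26 CCT3 peaks, with 18 in the 3′ UTR and 7 in the last exon, and a highest fold of 5.92. Its 37 CCT3-2 peaks, 23 of them in the 3′ UTR, were the most of any listed member in any list. No PABPC1 peak was listed under these 2 names. A PABPC1 peak listed under Zscan21 (chr5:138106276-138106342, fold 4.56) nevertheless lies inside the span of Zkscan1.

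Zfp638, a nuclear RNA-binding zinc finger protein, differed from these. It had 20 CCT3 peaks, 17 of them in exons other than the last and 2 in a last exon. Its highest peak, with a fold of 5.46, was in exon 2 of 27. Zfp704 (chr3:9427010-9610085, minus strand) was another exception, with 10 of 18 CCT3 peaks and 16 of 33 CCT3-2 peaks in introns and none in a last exon. Zfp217, a protein of corepressor complexes, had 10 CCT3 peaks, and Zfp644 had 13, all of them in exons other than the last. In these 4 genes, then, the last exon was not the main place.

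The highest CCT3 peaks were in Zfp101, Zfp322a and Zfp81. Zfp101 (chr17:33380174-33394637, minus strand) had 16 CCT3 peaks, all in the 3′ UTR, the highest at chr17:33381191-33381277, where the log2 fold was 7.25 and the −log10 p 37.9; in the CCT3-2 list all 27 were in the 3′ UTR and the highest fold was 7.37. Zfp322a (chr13:23353103-23369208, minus strand), a transcription factor of embryonic stem cells, had 11 CCT3 peaks, with 7 in the last exon, and its highest peak, 7.18, was in exon 4 of 4 at chr13:23357178-23357239; the CCT3-2 value was 6.26. The highest peak listed under Zfp81, 7.09, was in intron 4 of 5 at chr17:33370944-33371034. This peak lies outside the RefSeq span of Zfp81 (chr17:33329342-33358896): 14 of the 24 CCT3 peaks under that name are annotated to transcripts of its neighbour Zfp101. The peak is also outside the RefSeq span of Zfp101, to which only the annotated transcript ties it.

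The same applies to other names among the leading members. Of the 27 CCT3 peaks listed under Zfp963, only 5 lay in its span, and its 10 peaks in another gene's last exon belong to Zfp866. Of the 10 peaks under Zscan18, 9 are annotated to Zfp329, the highest (6.53) included. Zfp229 had 18 CCT3 peaks, of which 11 are annotated to Zfp760. In these cases the annotated gene again has a symbol of the pattern, so the totals of peaks stay; the values of single genes, and the number of genes with a peak, depend on which name is used. Zfp866 is listed with no peak of its own in any list, and Zfp760 with none in the CCT3 list.

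**Figure D2:**
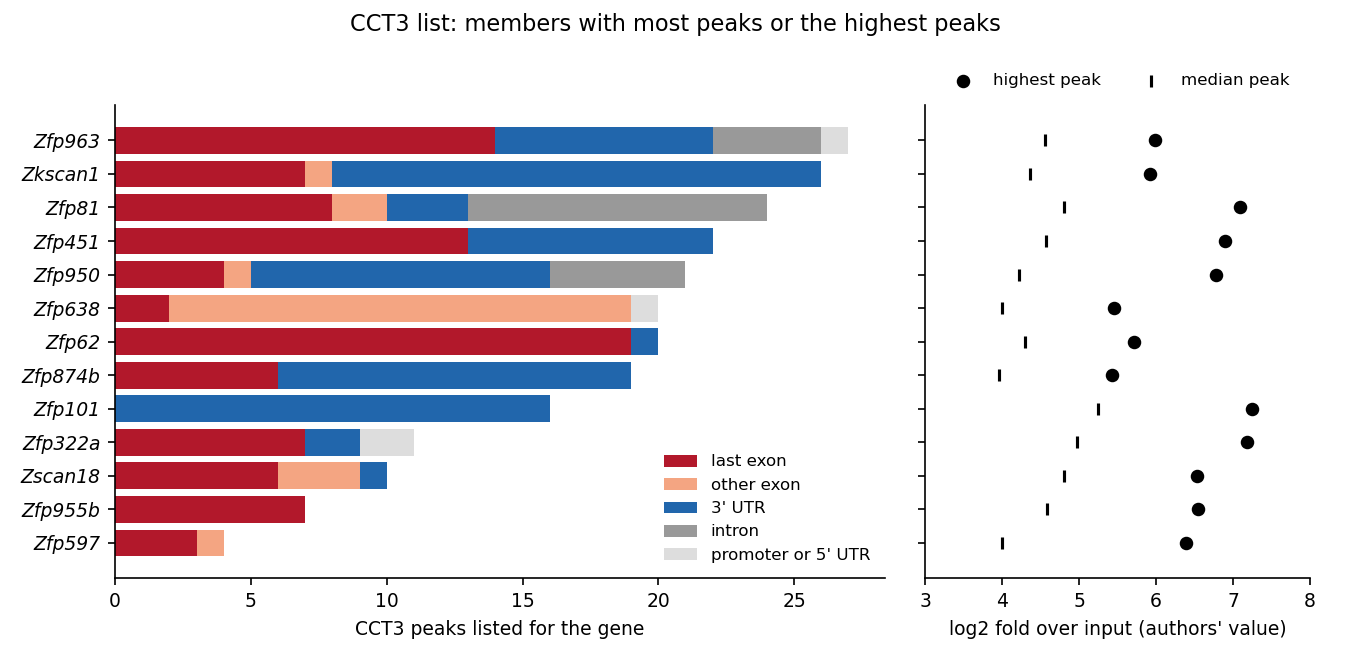
The 13 members with most CCT3 peaks or the highest CCT3 peaks: number of peaks by annotated position (left, bars from 0) and the authors' log2 fold over input of the highest and the median peak (right). Zfp62 is nearly all last exon (19 of 20), Zfp101 all 3′ UTR (16 of 16) and Zfp638 mostly other exons (17 of 20).

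None of the 8 members with most PABPC1 peaks was among the 8 with most CCT3 peaks. With 61 PABPC1 and 175 CCT3 members, such short sets would seldom share a gene, so this says nothing about the proteins. Zfp281, a transcription factor of pluripotent cells, and Zfp207, a spindle assembly factor, had 6 PABPC1 peaks each, all in the 3′ UTR. The highest folds were 6.39 in Zfp281 and 4.18 in Zfp207. Zfp518a (chr19:40894031-40917947, plus strand) had 5 peaks, the highest 7.10 at chr19:40917510-40917593, a median of 395.5 bases from the gene's 3′ end. Zfp217 had 5 peaks with a highest fold of 6.94, and Zfp523 had 5 with 6.39. Zfp207, Zfp518a, Zfp523, Zfp326 (part of a complex that links transcription elongation to splicing) and Zfp706 had no peak in either CCT3 list. Zfp597 held the highest member value of the PABPC1 list, 7.14.

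Distance to the 3′ end separated the 2 proteins. PABPC1 member peaks inside the gene lay a median of 587.5 bases from the 3′ end, and 46.8% (51 of 109) were within 500 bases of it. CCT3 member peaks lay a median of 4262 bases from it and 0.769% (7 of 910) were within 500 bases; the CCT3-2 list gave 4181 bases and 1.33%. For other genes the medians were 669, 18422 and 18242 bases, so CCT3 peaks of members were nearer to the 3′ end than those of other genes in bases, introns included, and PABPC1 peaks about as near. Over exon and 3′ UTR peaks only, the CCT3 medians were 4110 bases for members and 8652 for other genes.

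A peak of both PABPC1 and CCT3 was listed for 30 members, which is 49.2% of the 61 PABPC1 members and 17.1% of the 175 CCT3 members. Among other genes, 682 had both, or 13.04% of the PABPC1 list and 33.5% of the CCT3 list. The CCT3-2 list gave 32 members with both. In the 30 members the peaks of the 2 proteins lay mostly in different parts of the RNA. In the 3′ UTR were 56 of the 62 PABPC1 peaks (90.3%) and 44 of the 181 CCT3 peaks (24.3%). A further 66 CCT3 peaks were in last exons and 67 in other exons. In 28 of these members both proteins had a peak inside the gene, and in all 28 the median PABPC1 peak was closer to the 3′ end than the median CCT3 peak. The same count was not made for the 682 other genes, so this order is not shown to be particular to the members. Over all peaks inside the 30 genes, the median was 882 bases from the 3′ end for PABPC1 and 7708 for CCT3.

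The width of the separation differed from gene to gene. In Zfp281 (chr1:136624901-136630391, plus strand) all 6 PABPC1 peaks lay in the 3′ UTR, whereas 14 of the 15 CCT3 peaks lay in the second and last exon, with median distances to the 3′ end of 1359 and 4118 bases. In Zfp217 (chr2:170108643-170151677, minus strand) they were 398.5 and 10561 bases, and in Zfp644 191.5 and 19796 bases. Other genes had median distances closer together, such as Zfp36l2 with 1778.5 and 1866 bases. In Zfp287 they were 20427 and 22112 bases, both far from the 3′ end. Zfp318, Zfp280b and Zfp800 also had peaks of both proteins with high folds: 6.25 and 5.21 in Zfp318, 4.93 and 5.98 in Zfp280b, and 5.56 and 4.85 in Zfp800, for PABPC1 and CCT3 respectively. Zfp809, which silences proviral DNA in embryonic cells, had its 2 PABPC1 peaks in introns and its 4 CCT3 peaks in the 3′ UTR.

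**Figure D3:**
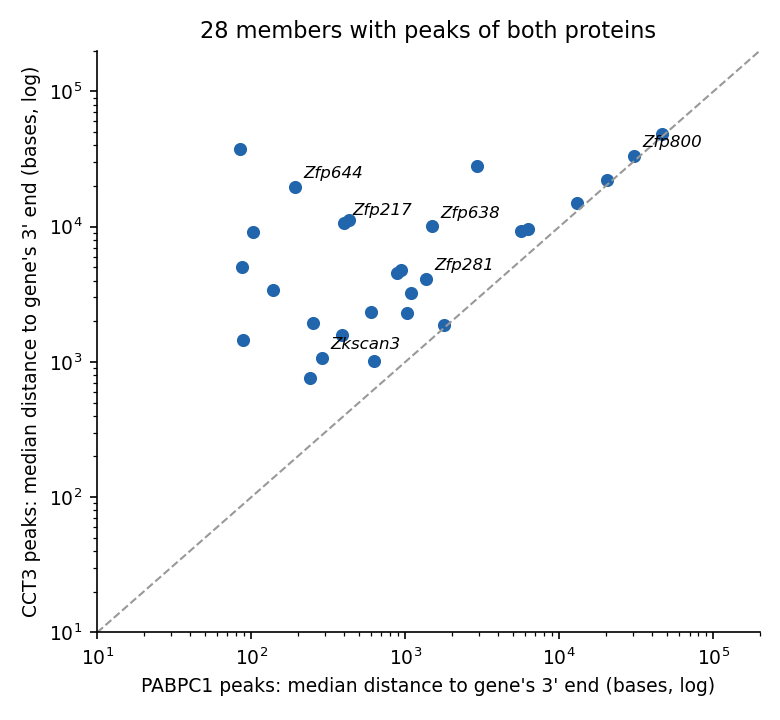
Median distance (bases, log axes) from the 3′ end of the gene to its PABPC1 peaks (horizontal) and CCT3 peaks (vertical), 1 point per gene, for the 28 members with peaks of both proteins inside the gene. The dashed line marks equal distances, and every point lies above it.

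Peaks of the 2 proteins on the same bases were rare. Of the 1024 CCT3 peaks of members, 2 shared 1 or more bases with a PABPC1 peak, in Zfp597 and Zfp36l2; of the 1666 CCT3-2 peaks, 5 did, in Zfp597, Zkscan3, Zfp516 and Zfp36l2. The shares were 0.195% and 0.300%, against 0.718% and 0.983% for other genes. The Zfp597 site is the highest PABPC1 peak of a member (chr16:3865747-3865775, fold 7.14) and the highest CCT3 peak of that gene (chr16:3865643-3865762, fold 6.39; 6.51 in the CCT3-2 list). Between the CCT3 and CCT3-2 lists, 947 of 1024 CCT3 member peaks (92.5%) overlapped a CCT3-2 peak, and 168 members were in both, 96.0% of the CCT3 members and 80.0% of the CCT3-2 members. For other CCT3 peaks the overlap was 89.6%.

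Within the last exons, CCT3 peaks of members tended to lie at regular distances, a pattern that was looked for after the peak positions had been seen. Distances of 60 to 1000 bases were taken between the midpoints of all pairs of last-exon peaks in the same transcript, which gave 1188 pairs in 87 transcripts in the CCT3 list. For each period from 50 to 150 bases, the distances were scored by the mean cosine of the distance over the period, which is 1 where all are whole multiples and near 0 where they have no common unit. The highest score was 0.191, at a period of 84 bases. With each transcript left out in turn the best period was 84 every time, with scores from 0.173 to 0.206. Within 10.5 bases of a multiple of 84 were 433 pairs (36.4%), where evenly spread distances would put 25%. In the CCT3-2 list, with 2466 pairs in 113 transcripts, the best period was 83 (score 0.151) and the share was 31.6%.

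The comparison sets gave lower shares. Last-exon peaks of other genes had 26.4% of 4568 pairs near a multiple of 84 in the CCT3 list and 26.5% of 12766 pairs in the CCT3-2 list, with best periods of 96 (score 0.0473) and 87 (0.0389). In the members, 3′ UTR peaks had 29.7% and 27.4%, and peaks in other exons 26.2% and 27.3%. Pairs of a transcript share peaks, so they are not independent and no test was made. The unit of 84 bases equals the 28 residues of a C2H2 finger with its linker; which bases of a finger lay under the peaks was not analysed here.

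Transcripts varied. Zfp52 (named by the annotated transcript; 6 of its 10 peaks are listed under the neighbour Zfp948) had 25 of 35 pairs (71.4%) near a multiple of 84, Zfp119a 13 of 19 (68.4%), Zfp955a 21 of 33 (63.6%) and Zfp267 36 of 76 (47.4%). In Zfp955a the first midpoints were 85, 77 and 96 bases apart, and the next 236 and 93. Zfp281 had 11 of 52 pairs (21.2%) near a multiple, and its first distances were 173.5, 206.5 and 94 bases; in the CCT3-2 list its share was 31.7%. Zfp62, with 104 pairs the largest contributor, had 29.8%, and Zfp955b, a near copy of Zfp955a, 21.1% of 19 pairs. The CCT3-2 list gave lower shares for the 4 transcripts named first: 48.5% for Zfp52, 30.4% for Zfp119a, 43.5% for Zfp955a and 39.8% for Zfp267. Zfp62 was lower there too, at 24.5%, whereas Zfp26 rose from 39.3% in the CCT3 list to 48.2%. Zfp955b had 30.8% in the CCT3-2 list, so the gap between Zfp955a and Zfp955b was smaller in that list.

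**Figure D4:**
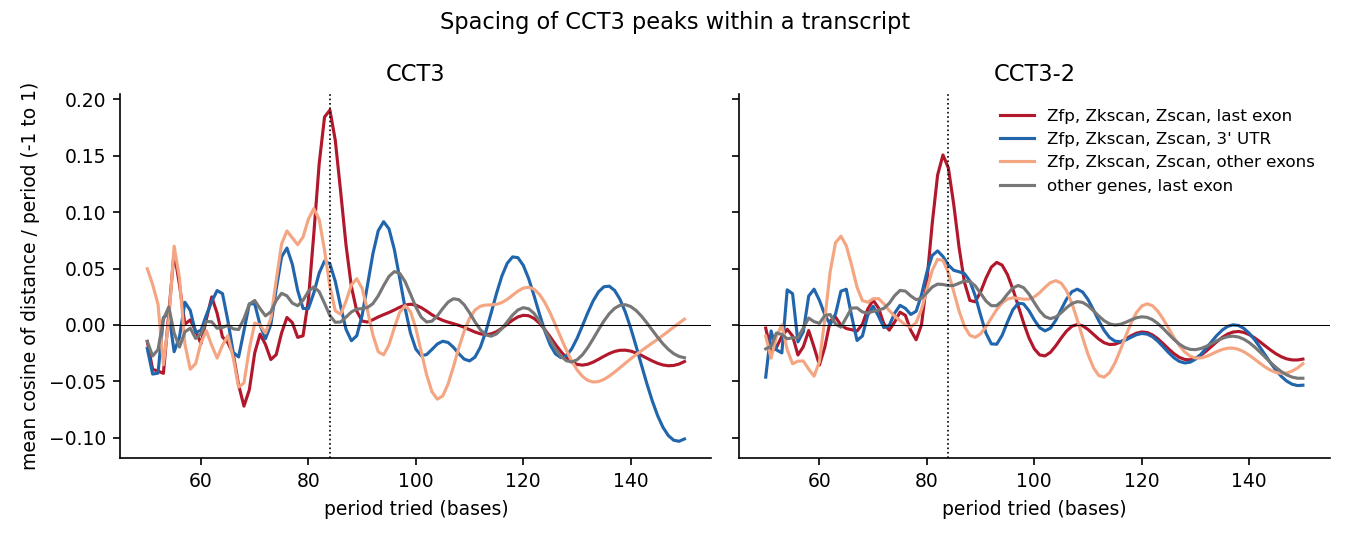
Mean cosine of the distances between CCT3 peaks of a transcript over each period tried (horizontal axis, bases) in the CCT3 and CCT3-2 lists, for last-exon, 3′ UTR and other exon peaks of the members and last-exon peaks of other genes. The dotted line marks 84 bases; the members' last-exon line peaks at 84 in the CCT3 list and at 83 in the CCT3-2 list.

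On the chromosomes, members were called clustered where the starts of neighbours were at most 1 Mb apart. Of the 448 RefSeq genes of the pattern, 327 (73.0%) lay in 54 such clusters of 2 or more. Of the CCT3 members 113 of 175 (64.6%, interval 57.2 to 71.3%) had another CCT3 member within that distance, in 27 clusters; of the CCT3-2 members 146 of 210 (69.5%), in 32 clusters; and of the PABPC1 members 18 of 61 (29.5%, interval 19.6 to 41.9%), in 8 clusters of at most 3 genes. A list with fewer genes has fewer neighbours, so the RefSeq clusters give the fairer comparison. A PABPC1 peak was listed for 34 of the 327 clustered RefSeq genes (10.4%, interval 7.54 to 14.2%) and for 27 of the 121 others (22.3%, interval 15.8 to 30.5%). For CCT3 the counts were 127 of 327 (38.8%) and 44 of 121 (36.4%), and for CCT3-2 162 of 327 (49.5%) and 48 of 121 (39.7%). Clustered genes were thus listed less often than lone ones for PABPC1, while in the CCT3 list the intervals of the shares overlapped (33.7 to 44.2% and 28.3 to 45.2%).

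The cluster with most CCT3 members was on chromosome 17, at chr17:21008941-23193284. It held 14 members with 108 peaks, of which 77 were in last exons and 18 in 3′ UTRs: Zfp160, Zfp677, Zfp51, Zfp53, Zfp52, Zfp948, Zfp229, Zfp820, Zfp995, Zfp942, Zfp943, Zfp758, Zfp945 and Zfp40. Its highest fold was 6.37, in Zfp758, and Zfp53 had all 13 of its peaks in the last exon. A cluster further along the chromosome, at chr17:32765496-33394637, held 10 members with 88 peaks, 36 in last exons and 36 in 3′ UTRs, from Zfp871 to Zfp955a, Zfp955b, Zfp81 and Zfp101. The cluster at chr13:67121659-67789082 held 10 members with 42 peaks and turned the other way, with 25 in 3′ UTRs and 16 in last exons; Zfp874b led it with 19 peaks and a highest fold of 5.43. None of the RefSeq genes of these 3 clusters had a PABPC1 peak.

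Clusters differed in how many of their genes were listed. On chromosome 17, 30 of 48 RefSeq genes (62.5%) had a CCT3 peak, with 218 peaks in all. On chromosome 7, which holds the most, 32 of 108 (29.6%) did, and on chromosome 13 19 of 44 (43.2%). Low clusters were on chromosome 4, where 3 of 16 genes had 3 CCT3 peaks in all, and at chr7:6131489-7209998, where 0 of 11 did. The largest PABPC1 clusters held 3 genes each: Zfp212, Zfp777 and Zfp746 on chromosome 6, and Zfp553, Zfp771 and Zfp768 on chromosome 7.

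**Figure D5:**
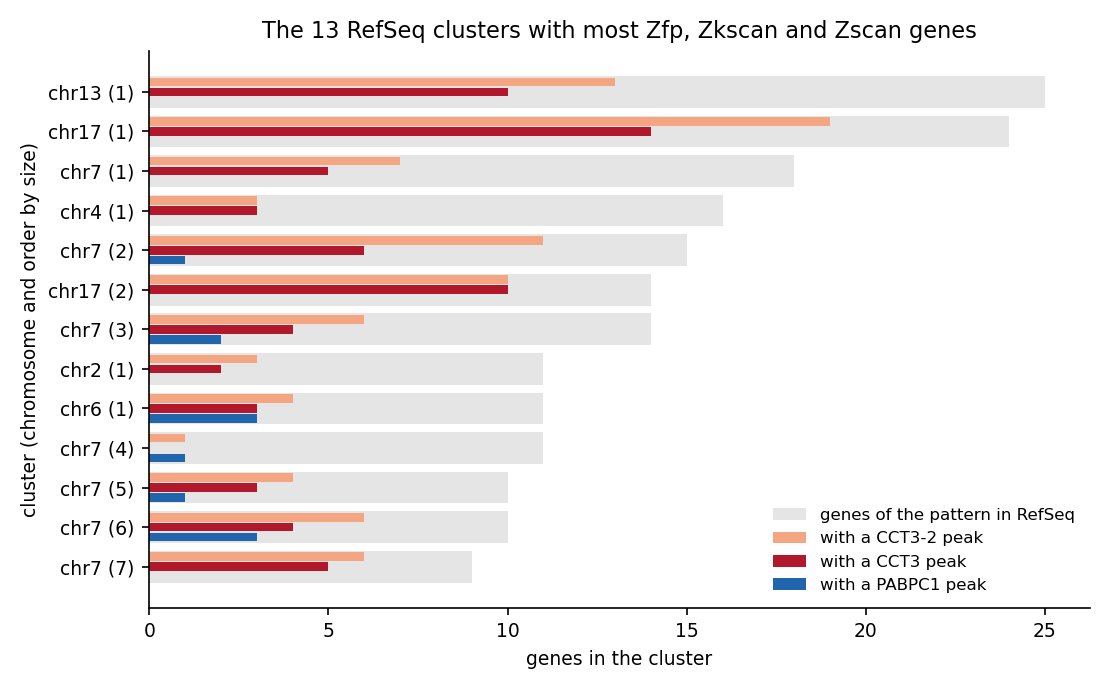
Genes per cluster (horizontal axis from 0) for the 13 clusters with most Zfp, Zkscan and Zscan genes in RefSeq (grey), with the number listed with a CCT3-2, CCT3 or PABPC1 peak as coloured bars. The number in brackets orders clusters of a chromosome by size; the first chromosome 17 cluster has 14 of 24 genes in the CCT3 list and 0 in the PABPC1 list.

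The Zkscan and Zscan genes gave 13 of the members, with most of their CCT3 peaks in last exons and 3′ UTRs. Of 27 coding genes with these names, 10 had 55 peaks in the CCT3 list (23 in last exons, 26 in 3′ UTRs), 13 had 90 in the CCT3-2 list and 3 had 4 in the PABPC1 list. Besides Zkscan1 and Zscan18, Zscan21 had 3 CCT3 peaks with a highest fold of 5.48 and 2 PABPC1 peaks with 4.56. Only 1 of those 3 and 1 of those 2 lay in its span. The highest peak of each protein lay inside the span of Zkscan1. Zscan25 had 3 CCT3 peaks, all in the 3′ UTR (highest 4.81), and Zscan22 had 5, 3 of them in the last exon (4.74). Zkscan3, a repressor of autophagy genes, had peaks in every list, with a highest fold of 3.03 for PABPC1, 3.16 for CCT3 and 4.22 for CCT3-2. Zkscan5 had 1 PABPC1 peak and 1 CCT3-2 peak, and Zscan20 and Zscan29 had CCT3-2 peaks only.

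Zfp36, Zfp36l1 and Zfp36l2 match the pattern by name, but their fingers are of the CCCH type and bind AU-rich elements of mRNAs. Zfp36 had 2 CCT3-2 peaks in its last exon (highest fold 3.98) and none in the other lists. Zfp36l2 (chr17:84183924-84187947, minus strand) had 2 PABPC1 peaks, 2 CCT3 peaks and 5 CCT3-2 peaks. Its highest CCT3 fold was low, 3.31, but that peak had a −log10 p of 52.5 and overlapped a PABPC1 peak in the 3′ UTR. Zfp36l1 was in none of the 3 lists.

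Other zinc finger families shared parts of the pattern. Of 41 coding Zbtb genes, which join a BTB domain to C2H2 fingers, 24 (58.5%, interval 43.4 to 72.2%) had a CCT3 peak, and 72 of their 130 peaks (55.4%) were in last exons; Zbtb9 had the highest fold, 6.21, and Zbtb21 had 15 of 16 peaks in the last exon. The last-exon share was therefore not limited to Zfp, Zkscan and Zscan genes. Of 94 genes of other C2H2 families by symbol, 21 (22.3%) had a CCT3 peak and 18 of 102 peaks (17.6%) were in last exons, with Klf2 and Zfhx4 among the highest; Sp100, a nuclear body protein without such fingers, matches that pattern by name and holds 15 of these peaks. Of 186 genes with fingers of other types, 23 (12.4%, interval 8.38 to 17.9%) had a CCT3 peak, near the 9.34% of all coding genes. Among them, Zmym1 had 15 peaks, all in the last exon. In PABPC1 the order was different: 66 of the 186 (35.5%), 10 of 41 Zbtb genes (24.4%) and 12 of the 94 (12.8%) had a peak. The share over all coding genes was 22.6%, so the Zbtb share (interval 13.8 to 39.3%) was near the background.

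A group of 20 genes of the KRAB corepressor and heterochromatin machinery, through which many of these proteins act, was also counted. PABPC1 peaks were listed for 9 (45%, interval 25.8 to 65.8%), against 22.6% of all coding genes. CCT3 peaks were listed for 4 (20%, interval 8.07 to 41.6%), against 9.34% of all coding genes. CCT3-2 peaks were listed for 6 (30%, interval 14.5 to 51.9%), against 12% of all coding genes. Each share was thus above the background of its list, and only the interval for CCT3 includes that background. Dnmt1, the maintenance DNA methyltransferase, led for PABPC1 with a highest fold of 8.20 and 3 peaks in the 3′ UTR, followed by the histone deacetylase Hdac2 with 8 peaks and 6.73. In the CCT3 list these were Resf1 (23 peaks, highest 5.83), Atf7ip (8 peaks, 5.37), and the HUSH complex genes Mphosph8 and Tasor (4 peaks each). Of the 39 CCT3 peaks of this group, 5 (12.8%) were in last exons, all of them under Resf1. In the CCT3-2 list 1 of 63 (1.59%) was, also under Resf1.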

How the data were processed

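eCLIP libraries for PABPC1 and CCT3, with inputs, were made from GC-2spd(ts) cells. Reads were converted with bcl2fastq 2.20 and the build was mm10, per the submitters' processing notes; the aligner, peak caller and any use of molecular identifiers were not given in the sources used here. The authors deposited 3 annotated peak lists with a log2 fold over input and a −log10 p per peak, per the file headers of the CCT3 list; the unnamed columns of the other lists were read as the same 2 deposited quantities. The lowest log2 fold was 3.00 in the PABPC1 and CCT3 lists and 2.37 in the CCT3-2 list, and the lowest −log10 p 3.01, 3.01 and 1.40. Depth is unknown.

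Members were the rows whose symbol is Zfp, Zkscan or Zscan followed by a number. Members and gene lists were chosen with earlier results of these data known. Exon ranks were read from the annotation text. Gene spans came from RefSeq GRCm38.p6. Shares were compared with 95% Wilson and Newcombe intervals, and no test was made, with 1 list per protein. Genes named per list were the 8 with most peaks, the 8 with the highest fold, the Zkscan and Zscan members, the 8 highest with both proteins, the 3 largest clusters, up to 4 per related gene list and the Zfp36 genes; others named were chosen after their values were seen. Overlaps were computed in Python 3.11.15 with numpy 2.4.6, pandas 2.3.3 and scipy 1.17.1 in place of bedtools. Overlap and spacing code was tested on simulated data. Alternatives were a stricter threshold (at least 4 for the log2 fold, at least 5 for −log10 p), the CCT3-2 list, peaks inside the RefSeq span, merging, other counting units and other cluster rules; the gene of the annotation text and the spacing of peaks were added after seeing the data.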

Additional observations from a re-analysis of the deposited data

Results flagged for a closer look

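The strand of the peaks, which no comparison above uses, is given in the PABPC1 and CCT3-2 lists. In the CCT3-2 list, 32 of 1666 member peaks (1.92%) lay on the strand opposite to the listed gene, above the 0.180% that a count of 0 allows. Of these, 18 were all the peaks listed under Zfp784 and 6 all those under Zfp14, and none of the peaks of these 2 genes lay inside the gene's span; 17 of the Zfp784 peaks are annotated to its neighbour Zfp865. Inside the spans of the listed members, 3 of 1506 peaks (0.199%) were on the opposite strand. In the PABPC1 list the counts were 3 of 122, 2 of them under Zfp14 and 1 under Zfp12, and 0 of 109 inside the spans. For other genes, 11.4% of CCT3-2 peaks and 14.6% of PABPC1 peaks were opposite to the listed gene. Inside the spans of those genes the shares were 3.48% and 3.19%.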

How the results depend on the processing

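No paired analysis was possible because each protein has 1 list and no test was made. Of 68 alternative values over 15 results, 48 stayed within the interval of the value reported, or within 1.5 times a count, and 20 did not. The stricter threshold left 34 PABPC1 members with 59 peaks and 113 CCT3 members with 484 peaks, put 96.6% of PABPC1 member peaks in 3′ UTRs and 0% in introns, lowered the clustered share of PABPC1 members to 5.88% and of CCT3 members to 56.6%, left 12 members with both proteins, and lowered the share of CCT3 member peaks that overlap a CCT3-2 member peak to 81.8%, from 91.1%; a reciprocal overlap of 50% gave 79.0%. With the CCT3-2 list in place of CCT3, member peaks were 1666 and the last-exon share 47.4%. Counting 3′ UTR peaks with the last exon gave 90.2% for PABPC1 and 80.1% for CCT3. Beyond 1000 bases from the listed start, 96.5% of PABPC1 member peaks were in 3′ UTRs. Inside the RefSeq span, 3.30% of CCT3 member peaks were in introns. Clusters of at least 3 genes held 9.84% of PABPC1 and 53.1% of CCT3 members, and starts at most 200 kb apart gave 54.3% for CCT3. The stricter threshold and the narrower cluster rules keep fewer peaks or genes by construction; the cause of the other moves was not tested. The best period of last-exon peaks in the CCT3 list was 82 to 84 bases under its alternatives; in the CCT3-2 list it was 83, but 86 over neighbouring peaks only.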
